A study of Mus musculus with 4 samples.

Results

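The Smad genes encode the intracellular proteins that carry the signal of TGF-beta, activin and BMP receptors to the nucleus, together with the inhibitory Smads that restrain it. The 8 genes Smad1 to Smad7 and Smad9 were taken by name from the 55573 genes of a ribosome-protected fragment table. They were selected with their values in this comparison already known, so the difference between the groups is given for each member as a description, without a p-value. The cells were primary mouse myoblasts, the proliferating progeny of muscle stem cells, kept in serum and FGF and collected on day 2 of proliferation. They came from 3-week-old eIF5A-KO mice, in which tamoxifen activates a Cre recombinase expressed from the Pax7 locus (Pax7-CreERT2) to delete floxed eIF5A, and from WT littermates. The study describes WT controls of both kinds, with Pax7-CreERT2 alone and with floxed eIF5A alone, and does not say which the littermates used here were. The titles of all 4 samples read Polysome-Seq, but their protocol describes RNase digestion and recovery of ribosome-protected fragments, and the values are described here as the latter. All cells were treated with cycloheximide before lysis. There were 2 WT libraries and 2 libraries labelled KO. The study speaks of duplicate Ribo-seq experiments but does not say whether the 2 libraries of a group came from separate mice or cultures, so p-values measure only the spread between these libraries, which may be technical. The deletion depends on Cre in Pax7-expressing cells, so any cell of another lineage in the cultures would keep its eIF5A alleles.

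In the canonical pathway, a ligand dimer brings together type I and type II receptor kinases, and the type I receptor phosphorylates a receptor-regulated Smad on serines at its very C-terminus. Smad1, Smad5 and Smad9 are the substrates of BMP receptors, and Smad2 and Smad3 those of TGF-beta, activin and myostatin receptors. Each pairs with the common partner Smad4 to enter the nucleus and regulate transcription. Smad6 and Smad7 lack the C-terminal serines, bind receptors and recruit Smurf ubiquitin ligases. Smad6 acts preferentially on BMP signals and Smad7 on both arms. In muscle, BMP signals favour proliferation of muscle stem cells and delay their differentiation, and myostatin acting through Smad2 and Smad3 limits muscle growth. eIF5A itself is a translation factor known for relieving ribosomes that stall at runs of proline codons.

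The receptor-regulated class can be told from the other Smads in the coding sequences. The last 6 codons, stop included, are shown for 5 members because they hold the phosphorylated serines, with serine codons in capitals among the last 5 sense codons (GENCODE M21 transcripts, GRCm38).
Smad1 (chr8:79339649-79339666, minus strand): attTCATCCgtgTCTtaa
Smad5 (chr13:56737461-56737478, plus strand): attTCTTCTgttTCAtag
Smad9 (chr3:54797484-54797501, plus strand): atcTCTTCAgtgTCTtaa
Smad3 (chr9:63650262-63650279, minus strand): tgtTCCAGTgtgTCTtag
Smad6 (chr9:63953524-63953541, minus strand): ctcaacaaccacagatag
The 4 receptor-regulated genes shown ended in 2 adjacent serine codons, another residue and a last serine codon, as did Smad2. Smad6 had no serine codon there, and Smad4 and Smad7 lacked the pattern.

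The longest proline run of each gene was read from the same coding sequences, since runs of proline are the best known context in which eIF5A acts. For 4 genes with 3 or more consecutive proline codons, 36 bases around the run are shown with the codons of the run in capitals, and other proline codons left in lower case. The coordinates are those of the capitals, because each window begins in the exon before.
Smad6 (chr9:64012255-64012266, minus strand): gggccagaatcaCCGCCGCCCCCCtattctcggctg
Smad1 (chr8:79353430-79353438, minus strand): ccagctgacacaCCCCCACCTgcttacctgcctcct
Smad5 (chr13:56728518-56728526, plus strand): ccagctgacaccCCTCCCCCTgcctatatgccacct
Smad3 (chr9:63666209-63666217, minus strand): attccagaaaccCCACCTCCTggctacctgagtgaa
In each, a tyrosine codon (tat or tac) follows directly or after 1 codon, which is the PY motif through which Smads contact the Smurf ligases. Smad6 and Smad7 had runs of 4 prolines, in Smad6 at codons 276 to 279 of 495. Smad1, Smad2, Smad3 and Smad5 had runs of 3, and Smad4 and Smad9 had no run longer than 2. A run of at least 3 prolines was thus present in 6 of the 8 members, beside 20.01% of the 21794 protein-coding genes with a coding sequence, and a run of at least 4 in 2 of the 8, beside 6.35%. Smad6, with the lowest values in the KO-labelled libraries relative to WT, and Smad7, without such a difference, shared the longest runs.

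The libraries held 642429 to 704006 reads each, recovered from the RPKM values. Protein-coding genes took 41.5% and 33.9% of reads in the WT libraries and 65.4% and 59.2% in the KO-labelled ones, and the mitochondrial rRNAs 39.1% and 30.1% against 15.0% and 18.5%. MicroRNA genes took 16.8% of WT library 2 and 2.31% to 4.30% of the others. Eif5a, the targeted gene, measured 34.9 and 65.2 RPKM in WT and 60.3 and 59.4 RPKM in the KO-labelled libraries. Its values were not lower in either library labelled KO than in both WT libraries. The label is therefore used here only as a label, and no direction below rests on a measured loss of Eif5a.

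Values are reads scaled to gene length and library size (RPKM). The length is that of the whole gene, 2.15 times the coding length in Smad6 and 6.25 times in Smad2, while ribosomes protect mainly coding sequence. Levels of different members are therefore also given as reads per kb of coding length, a scale chosen after the data were seen, whereas the comparison of groups within a gene does not depend on length. Because the measurement is on bulk cells, fewer cells of a type and less signal per cell cannot be told apart. Of the 8 members, 7 passed the filter of a mean of 1 RPKM over the 4 libraries, and Smad9 did not.

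Among the BMP receptor-regulated Smads, Smad1 (chromosome 8, 79338395 to 79399518) was the most strongly read. It measured 18.5 and 17.6 RPKM in WT and 11.97 and 14.8 RPKM in the KO-labelled ones. Both KO values lay below both WT values, and the means were 18.1 ± 0.648 and 13.4 ± 2.02 RPKM (SD, n = 2). The log2 difference, KO minus WT on the log2(RPKM + 1) scale, was -0.41 with a standard error of 0.38. Smad5 (chromosome 13, 56703010 to 56742377), its closest relative, measured 7.38 and 6.87 RPKM in WT and 6.54 and 5.34 RPKM in the KO-labelled libraries. Its groups were also separate, but by a gap smaller than the distance between the WT libraries. The log2 difference was -0.23 ± 0.36 (SE). Smad9 (chromosome 3, 54755582 to 54801257), the third BMP-regulated Smad, had 0 reads in 3 libraries and 1 read in KO library 2, which is 0.231 RPKM. With 0 reads, a level of up to 0.927 RPKM in WT library 1, 1.19 RPKM in WT library 2 and 0.616 RPKM in KO library 1 remains possible, taking 3 reads as the limit. Smad9 was thus not detectable at this depth in WT, and no fold difference can be given.

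The TGF-beta and activin branch differed between its members. Smad2 (chromosome 18) measured 3.02 and 6.53 RPKM in WT and 6.03 and 6.63 RPKM in the KO-labelled libraries. WT library 1 alone was low, at 16 reads, and the other 3 libraries lay between 6.03 and 6.63 RPKM. The log2 difference of 0.41 ± 0.44 (SE) became -0.04 without WT library 1. Smad3 (chromosome 9, 63646767 to 63757994) measured 8.38 and 6.51 RPKM in WT and 1.19 and 3.80 RPKM in the KO-labelled libraries. Every KO value was below every WT value, and the lowest WT value was 1.71-fold the highest KO value. These rest on few reads, 28 and 17 in WT and 6 and 17 in the KO-labelled libraries. The counting interval (exact Poisson, 95%) of WT library 2, 3.79 to 10.4 RPKM, overlapped that of KO library 2, 2.21 to 6.08 RPKM. The log2 difference of Smad3 was -1.37 ± 0.49 (SE), and -0.81 without KO library 1.

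Smad4 (chromosome 18), the partner that all receptor-regulated Smads share, had nearly equal group means. Its signal was 18.8 and 20.6 RPKM in WT and 17.8 and 21.7 RPKM in the KO-labelled libraries. The KO values lay on either side of the WT values. The log2 difference was 0.00 ± 0.39 (SE).

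The inhibitory Smads stood apart from each other. Smad6 (ENSMUSG00000036867, chromosome 9, 63953076 to 64022059, minus strand, 4 exons) measured 136.6 and 351.0 RPKM in the WT libraries and 34.1 and 16.997 RPKM in the KO-labelled ones. These values came from 264 and 530 reads in WT and 99 and 44 reads in the KO-labelled libraries. Both KO values were well below both WT values, and the lowest WT value was 4.01-fold the highest KO value. The exact Poisson intervals were 121 to 154 and 322 to 382 RPKM in WT, and 27.7 to 41.5 and 12.4 to 22.8 RPKM in the KO-labelled libraries, so that no WT interval touched a KO interval. Neither did the intervals of the libraries within a group, which differed by 2.57-fold in WT and 2.00-fold in KO, and the spread between libraries exceeded counting error. The group means were 244 ± 152 RPKM in WT and 25.5 ± 12.1 RPKM in the KO-labelled libraries (SD, n = 2), a 9.55-fold ratio, and the log2 difference was -3.13 ± 0.64 (SE). Among 21900 protein-coding genes, Smad6 ranked 69 and 24 by RPKM in the WT libraries and 695 and 1495 in the KO-labelled ones. Smad7 (chromosome 18), the other inhibitory Smad, measured 6.60 and 6.57 RPKM in WT and 5.85 and 9.58 RPKM in the KO-labelled libraries. Its groups overlapped, and the log2 difference of 0.17 ± 0.40 (SE) became -0.15 without KO library 2.

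**Figure D1:**
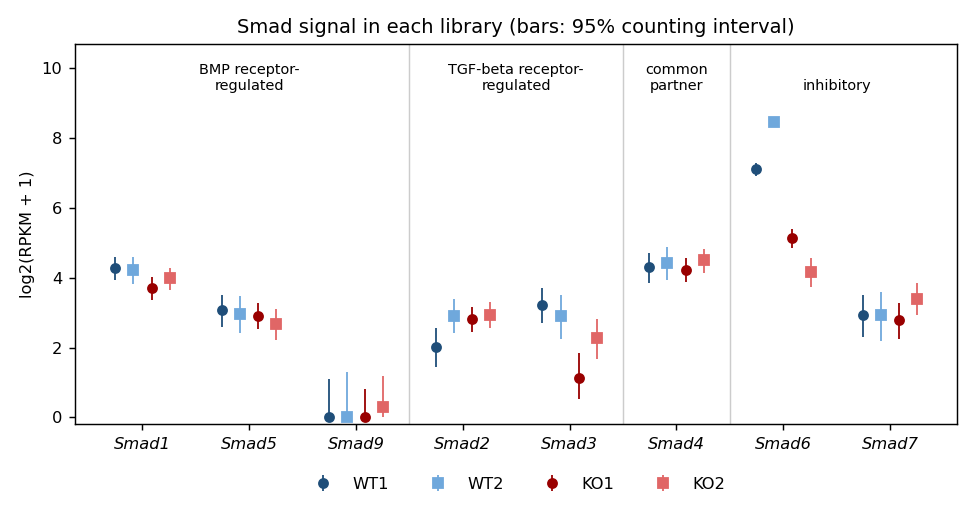
Signal of the 8 Smad genes on the log2(RPKM + 1) scale, with 1 point per library (blue, WT; red, libraries labelled KO) and bars for the 95% exact Poisson counting interval, grouped by role. Smad6 is the highest Smad gene in all libraries but KO library 2, at 136.6 and 351.0 RPKM in WT against 34.1 and 16.997 RPKM, while the points of Smad4 lie between 17.8 and 21.7 RPKM.

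In the order of mean RPKM, WT libraries had Smad6, Smad4, Smad1, Smad3, Smad5, Smad7, Smad2 and Smad9. The range of Smad3 overlapped those of Smad5, Smad7 and Smad2, so its place among the fourth to the seventh was not resolved. The other neighbours in that order were separate, although with 2 libraries such separation is weak evidence of an order. In the KO-labelled libraries the order by RPKM was Smad6, Smad4, Smad1, Smad7, Smad2, Smad5, Smad3 and Smad9. There the ranges of Smad6 and Smad4 overlapped, as did those of Smad7, Smad2 and Smad5 with each other. Smad3 was separate there from the members above it. Part of this order depended on the length used. Per kb of coding length, Smad1 had 50.1 and 37.2 reads in WT and 48.6 and 53.6 reads in the KO-labelled libraries, and Smad4 had 25.4 and 21.7 reads against 36.2 and 39.3 reads. Smad1 thus stood above Smad4 in all 4 libraries on that scale, and below it in 4 of 4 by RPKM. Smad6 kept the first place in 3 libraries, at 177 and 356 reads per kb in WT and 66.5 reads in KO library 1, and took the fourth in KO library 2 at 29.6 reads.

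The composition of the Smad signal was then examined within each library, which does not depend on how libraries are scaled to each other but does depend on gene length. Smad6 held 68.5% and 84.4% of the summed RPKM of the 8 genes in the WT libraries and 40.8% and 21.5% in the KO-labelled ones. The groups did not overlap, with means of 76.5% ± 11.2 and 31.1% ± 13.7 (SD, n = 2). As a share of reads rather than RPKM, Smad6 held 56.1% in WT library 1 (Wilson 95% interval 51.5% to 60.5%) and 75.7% in WT library 2 (72.4% to 78.7%). The shares of reads were 28.4% in KO library 1 (23.9% to 33.3%) and 13.9% in KO library 2 (10.5% to 18.2%). Smad4 took 9.42% and 4.95% of the summed RPKM in WT and 21.4% and 27.4% in the KO-labelled libraries. Per coding length, the share of Smad6 was 54.8% and 74.9% in WT and 27.7% and 13.4% in the KO-labelled libraries. Shares sum to 100%, so those of the other members depend on that of Smad6. Without Smad6, the remaining 7 genes summed to 62.7 and 64.7 RPKM in WT and 49.4 and 62.1 RPKM in the KO-labelled libraries.

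**Figure D2:**
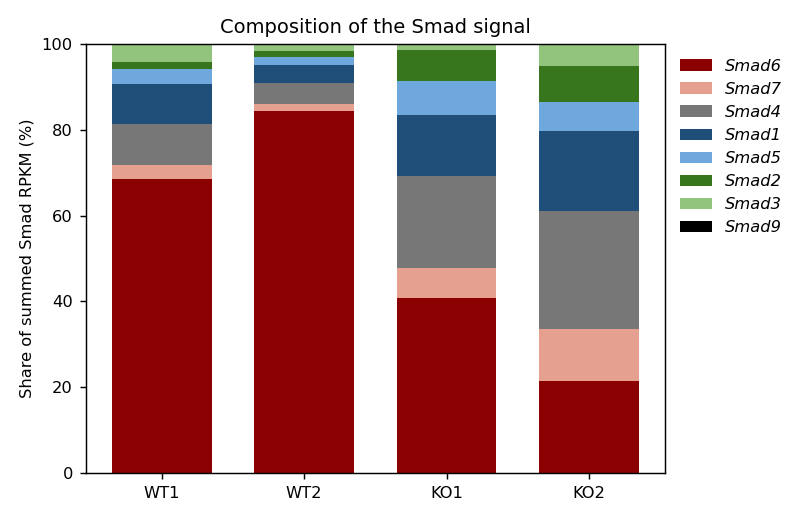
Share of each Smad gene in the summed RPKM of the 8 genes, in percent, with 1 stacked bar per library. Smad6 (dark red) takes 68.5% and 84.4% of the bar in WT libraries 1 and 2 and 40.8% and 21.5% in the KO-labelled libraries.

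Ratios between members gave the same separation without any use of library size. The ratio of Smad6 to Smad4 was 7.28 and 17.1 in WT and 1.91 and 0.784 in the KO-labelled libraries. Smad6 to Smad7, the ratio of the inhibitory pair, was 20.7 and 53.4 in WT and 5.82 and 1.77 in the KO-labelled libraries. Per coding length these were 12.6 and 32.6 against 3.55 and 1.08. Smad6 therefore exceeded Smad7 in every library, by a margin that was smaller in both KO-labelled libraries. Smad6 to the summed receptor-regulated Smads was 3.66 and 9.35 in WT against 1.32 and 0.551. The ratio of Smad3 to Smad2 was 2.77 and 0.998 in WT against 0.198 and 0.573, and that of Smad1 to Smad4 was 0.988 and 0.856 against 0.672 and 0.684. Both were lower in the 2 KO-labelled libraries. By contrast, the values overlapped between groups for Smad1 to Smad5, at 2.51 and 2.57 against 1.83 and 2.78, and for Smad7 to Smad4, at 0.352 and 0.319 against 0.328 and 0.442. The balance of the branches, BMP-regulated (Smad1, Smad5 and Smad9) to TGF-beta-regulated (Smad2 and Smad3) Smads, was 2.27 and 1.88 in WT and 2.56 and 1.96 in the KO-labelled libraries, also overlapping. Per coding length the ratios had other sizes, with Smad1 to Smad4 at 1.97 and 1.71 against 1.34 and 1.37 and Smad6 to the receptor-regulated Smads at 1.66 and 4.10 against 0.559 and 0.238, and each of these 8 ratios was separate or overlapping between groups as by RPKM.

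Taking all 11363 tested genes in the limma fit, 0 of the 7 tested members passed an adjusted p of 0.05, beside 0.0968% of all tested genes that passed lower and 0.0088% higher in the KO-labelled libraries. At an unadjusted p under 0.05, 2 members were lower and 0 higher, beside 4.46% and 2.86% of all tested genes. With limma-voom on the recovered reads, 1 of the 7 members passed the adjusted threshold and was lower, beside 0.425% of the 9179 genes tested there that were lower and 0% that were higher. At an unadjusted p under 0.05 this fit gave 2 members lower, beside 6.66% of its genes, and 0 higher, beside 3.48%. The values of 4 members (Smad1, Smad3, Smad5 and Smad6) did not overlap between groups and were lower in the KO-labelled libraries, beside 20.3% of all tested genes and 19.3% of the protein-coding ones, and 0 members were separate and higher, beside 20.1% and 22.4%. Since the members were selected on this contrast, nothing further is read from these counts.

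The log2 difference of Smad6 stayed below 0 under each of the 16 alternative settings, from -3.81 without WT library 1 to -2.45 without WT library 2. Smad3 stayed below 0 in the 15 settings that tested it, from -1.94 without KO library 2 to -0.81 without KO library 1. Filters, trend=FALSE and the replicate block left these estimates unchanged by construction. Another pseudocount or leaving out a library cannot change the sign where the groups are separate. The sign was thus open mainly to the scalings, quantile normalization and the removal of the GC trend. The differences of Smad1 and Smad5 changed sign under scaling to an equal read total, to 0.16 and 0.30. That scaling moved the median of all genes from 0.00 to 0.50, and gave 0.59 for Smad4 and -2.53 for Smad6.

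**Figure D3:**
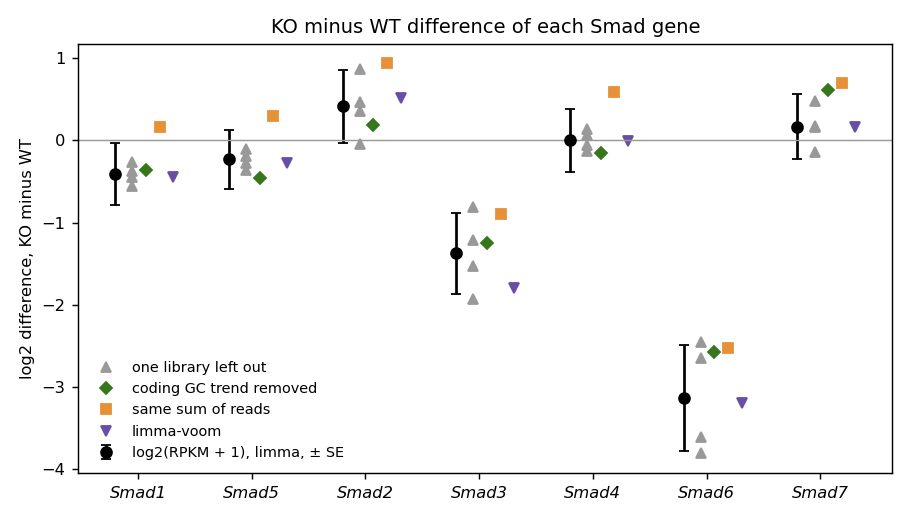
Difference between the KO-labelled libraries and WT for the 7 tested Smad genes on the log2 scale, as estimate ± SE (black) and under other settings (coloured symbols; grey triangles leave out 1 library each). The symbols of Smad6 lie between -3.81 and -2.45 and those of Smad3 below 0, whereas the symbols of the other 5 genes fall on both sides of 0.

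The members were also compared in features that the selection did not use. The coding sequence of Smad6 was 67.9% GC, higher than 99.0% of the tested protein-coding genes, whose median was 53.1%. Smad7 followed at 62.6%, and then Smad9 at 58.2%, Smad3 at 56.7% and Smad1 at 55.4%. Smad4, Smad5 and Smad2 had 50.9%, 48.2% and 47.9%. When the tested protein-coding genes were divided into 10 equal bins by coding GC, the median log2 difference was 0.38 in the lowest bin and -0.48 in the highest. In the highest bin the quartiles were -0.89 and 0.02. Smad6 and Smad7 both belonged to the highest bin, with log2 differences of -3.13 and 0.17. After removal of the GC trend within each library, the difference was -2.57 for Smad6, -1.24 for Smad3, 0.61 for Smad7 and -0.45 for Smad5. The part of GC content in the remaining differences was not tested.

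**Figure D4:**
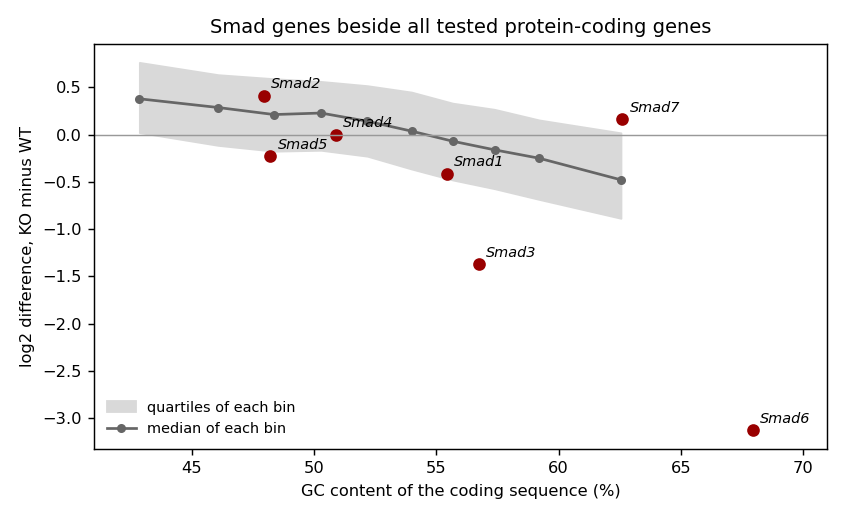
Log2 difference between the KO-labelled libraries and WT against the GC content of the coding sequence in percent. The grey line joins the medians of 10 equal bins of the tested protein-coding genes, the band spans the quartiles of each, and red points are the 7 tested Smad genes. The line runs from 0.38 to -0.48, Smad6 at 67.9% GC lies far below it, and Smad7 at 62.6% GC lies above it.

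Smad3 and Smad6 are neighbours on chromosome 9, both on the minus strand with 195 kb between them. No tested gene lay between them. Within 500 kb on either side there were 13 other tested genes, with a median log2 difference of 0.08 and a range from -3.51 to 1.70, and 6 of the 13 were below 0. The lowest protein-coding gene among them, Megf11, measured 4.60 and 18.6 RPKM in WT and 0.394 and 1.88 RPKM in the KO-labelled libraries. The ribosomal protein gene Rpl4 measured 373 and 236 RPKM in WT against 214 and 215 RPKM, and the kinase gene Map2k1 21.5 and 34.4 RPKM against 38.0 and 31.8 RPKM. These neighbours were looked at after the values of Smad3 and Smad6 were known.

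Reads could be divided among related genes if the members were nearly identical, so the sequences were compared. Over aligned coding bases, gaps included, Smad1 and Smad5 were 76.4% identical, Smad1 and Smad9 71.3%, and Smad2 and Smad3 70.2%. Smad6 and Smad7 were 54.7% identical, and the lowest pair, Smad4 and Smad7, 44.4%. Of the 3202 stretches of 26 bases in Smad6 transcripts, 5 occurred in another gene and 0 in another Smad. Smad1 and Smad9 shared 4 such stretches, and the members had from 0% (Smad3, Smad4 and Smad7) to 1.85% (Smad9) of their stretches in another gene. No annotated gene overlapped Smad6, and those that overlapped Smad4 and Smad5 had 0 reads.

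The 5 protein-coding genes nearest to Smad6 in profile were found among 8729 with at least 20 reads, by the root mean square difference of centred log2(RPKM + 1) values over the 4 libraries. They were Hba-a2, an alpha-globin gene (0.364), Tfap2b, an AP-2 transcription factor (0.385), Skint3 (0.675), Klhl15, an adaptor of a ubiquitin ligase (0.713), and Larp6, a binder of collagen mRNAs (0.719), where the median gene had 1.74. Tfap2b measured 10.5 and 37.8 RPKM in WT and 2.09 and 1.95 RPKM in the KO-labelled libraries, and so shared with Smad6 the higher value in WT library 2. Klhl15 measured 11.1 and 16.996 RPKM in WT and 2.15 and 2.67 RPKM in the KO-labelled libraries. Hba-a2 had a total of 9 and 14 reads in WT, and its reads may be shared with a near-identical globin copy. With 4 points a profile holds little information, and genes similar to Smad6 are by construction genes with lower values in the KO-labelled libraries.

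The genes around the Smads in the pathway were followed in 7 lists of 91 genes, of which 68 were tested. In limma, 0 of the 68 passed an adjusted p of 0.05 in either direction, and 4 were lower (Ltbp3, Ski, Id2 and Atoh8) and 1 higher at an unadjusted p under 0.05. In limma-voom 0 of 62 passed, and its unadjusted p was under 0.05 for 6 lower genes and 1 higher. An equal read total turned this split in limma to 1 lower and 9 higher. Over the 68 genes the median log2 difference was -0.20, beside 0.00 for all tested genes. Values that did not overlap were lower in 27.9% of them and higher in 14.7%, beside 20.3% and 20.1% of all tested genes.

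Among TGF-beta and activin ligands, 5 of 10 were tested, with a median log2 difference of -0.63. Tgfb1 measured 61.8 and 28.2 RPKM in WT and 17.7 and 30.2 RPKM in the KO-labelled libraries, and the activin subunit gene Inhbb 45.6 and 20.5 RPKM against 17.6 and 21.5 RPKM. In both, WT library 1 was high and the groups overlapped. The lower-level Tgfb3 measured 7.85 and 1.25 RPKM against 1.96 and 1.83 RPKM. Inhba, another activin subunit gene, measured 8.31 and 12.6 RPKM against 23.1 and 12.01 RPKM. Mstn, encoding myostatin, had 2 reads in all. Of 12 BMP ligands 4 were tested, with a median of -0.51. Bmp2 measured 35.0 and 17.3 RPKM in WT and 18.6 and 15.0 RPKM in the KO-labelled libraries, Bmp4 5.17 and 3.78 RPKM against 3.43 and 1.10 RPKM, and Bmp6 5.53 and 2.72 RPKM against 1.98 and 3.17 RPKM. No ligand gene with 20 or more reads had a difference as large as that of Smad3.

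Receptors and co-receptors had 14 of 17 genes tested and a median of -0.13. The BMP co-receptor gene Rgma, at 17.1 and 5.36 RPKM in WT and 3.98 and 3.35 RPKM in the KO-labelled libraries, and the type II receptor gene Acvr2a, at 3.501 and 3.36 RPKM against 2.91 and 0.871 RPKM, had the lowest differences. The highest were the type I receptor genes Acvrl1, at 5.83 and 6.47 RPKM against 9.05 and 10.2 RPKM, and Tgfbr1, at 5.84 and 2.27 RPKM against 6.92 and 4.93 RPKM. Of these 4, Rgma and Acvr2a were separate and lower, Acvrl1 was separate and higher, and Tgfbr1 overlapped. Extracellular antagonists and latency proteins had 12 of 15 tested and a median of -0.39. Ltbp3, which holds latent TGF-beta in the matrix, measured 17.01 and 12.2 RPKM in WT and 5.47 and 5.05 RPKM in the KO-labelled libraries, and the BMP antagonist gene Nbl1 49.0 and 36.5 RPKM against 21.7 and 23.8 RPKM. The BMP modulator gene Bmper, at 2.75 and 0.439 RPKM against 7.30 and 3.84 RPKM, was separate in the other direction.

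Regulators of Smad proteins had 18 of 19 genes tested and a median of -0.14. The corepressor gene Ski measured 36.7 and 24.4 RPKM in WT and 11.1 and 14.5 RPKM in the KO-labelled libraries, and the coactivator gene Crebbp 14.3 and 6.90 RPKM against 6.68 and 4.02 RPKM. Of the ligases that inhibitory Smads recruit, Smurf2 measured 5.65 and 18.9 RPKM against 13.1 and 18.1 RPKM and overlapped, and Smurf1 measured 12.8 and 12.7 RPKM against 7.13 and 8.79 RPKM and was separate and lower. Tob1, which restrains BMP Smads, measured 13.8 and 14.8 RPKM against 21.2 and 18.9 RPKM. Targets of BMP signals had 6 of 8 genes tested and a median of -0.42. Atoh8, a bHLH factor, measured 15.2 RPKM in both WT libraries and 2.20 and 3.95 RPKM in the KO-labelled libraries. Its log2 difference was -2.03 ± 0.40 (SE), the lowest of the 68 genes, with an adjusted p of 0.471 in limma. Among the inhibitors of myogenic bHLH factors, Id2 measured 21.1 and 13.9 RPKM in WT and 5.88 and 9.65 RPKM in the KO-labelled libraries. Id3 measured 240 and 324 RPKM against 255 and 285 RPKM, and Id1 94.4 and 129.9 RPKM against 95.05 and 94.99 RPKM. Hey1, the remaining named target, measured 2.03 and 2.60 RPKM against 4.39 and 1.14 RPKM. Smad6 and Smad7 are themselves known as targets of these pathways, and Smad6 is a classic BMP target, but they were not counted in the lists. Targets of TGF-beta had 9 of 10 genes tested and a median of 0.36. The matrix gene Tgfbi measured 17.6 and 20.8 RPKM in WT and 32.2 and 24.3 RPKM in the KO-labelled libraries. The smooth muscle actin gene Acta2 measured 98.2 and 73.5 RPKM against 46.7 and 67.1 RPKM, and the cell cycle inhibitor gene Cdkn2b 5.97 and 9.16 RPKM against 4.76 and 5.34 RPKM.

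**Figure D5:**
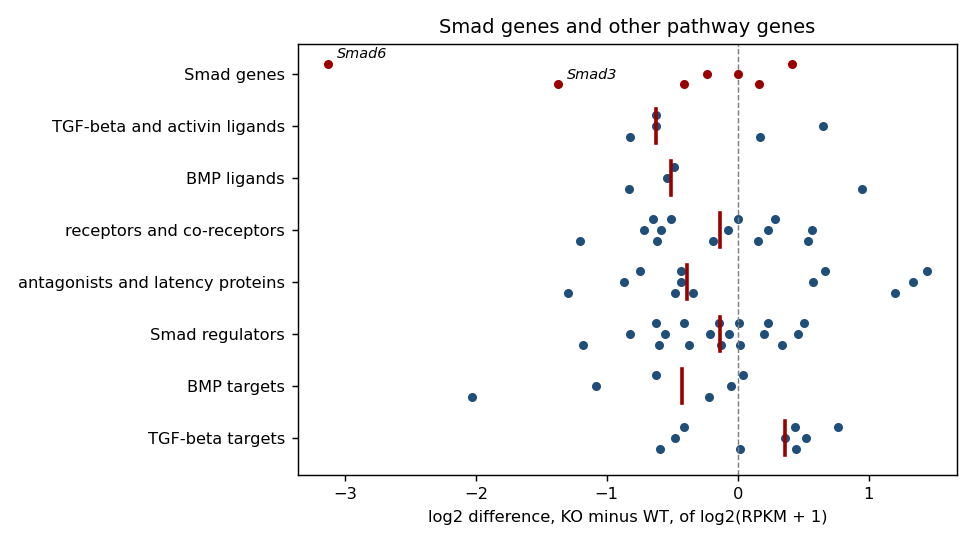
Log2 difference between the KO-labelled libraries and WT for each tested gene (points) of the Smad genes and 7 pathway lists, with the list median as a red bar and the median of all tested genes as a dashed line at 0.00. List medians run from -0.63 to 0.36, and Smad6 at -3.13 lies left of all the 68 pathway genes, of which the lowest is at -2.03.

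The labelled cell type was checked with markers of the cells that a muscle culture can hold. Myogenic markers were present, with Myod1 at 140 and 117 RPKM in WT and 48.6 and 79.8 RPKM in the KO-labelled libraries. All 8 tested of 9 had a log2 difference below 0 (median -1.43), and 6 were separate and lower, the direction of Smad6, beside 20.3% of all tested genes. For the counts of the other cell types below, the shares over all tested genes are likewise 20.3% separate and lower and 20.1% separate and higher. The summed level of the myogenic markers was 340 and 200 RPKM in WT and 98.4 and 120 RPKM in the KO-labelled libraries. Of this, Myog made up 91.0 and 4.26 RPKM in WT and 0.737 and 1.66 RPKM in the KO-labelled libraries. Markers of other cells were present as well. Endothelial markers, of interest because Smad6 is well expressed in endothelium, summed to 279 and 410 RPKM in WT and 386 and 476 RPKM in the KO-labelled libraries. Their defining genes Cdh5 (71.04 and 63.6 RPKM against 87.1 and 68.0 RPKM) and Pecam1 (21.8 and 21.1 RPKM against 21.95 and 22.5 RPKM) were not lower, 0 of 10 tested were separate and lower, and 6 were separate and higher. Fibroblast markers summed to 622 and 424 RPKM in WT and 986 and 476 RPKM in the KO-labelled libraries, with 2 of 9 separate and lower and 2 separate and higher. Mural cell markers summed to 74.1 and 60.4 RPKM against 60.2 and 50.3 RPKM, with 3 of 6 tested separate and lower and 1 separate and higher. Immune markers summed to 48.2 and 76.5 RPKM against 66.8 and 51.4 RPKM. Of 5 tested, 2 were separate and lower (Cd68 and Lyz2) and 2 separate and higher (Adgre1 and Cd14). The macrophage genes Cd68, at 15.8 and 23.6 RPKM in WT against 14.9 and 14.8 RPKM, and Adgre1, at 0.512 and 1.97 RPKM against 4.43 and 4.21 RPKM, were thus present with opposite directions. Itgam was at 0 in all libraries and Ptprc, present on nearly all blood leukocytes, at 0 in WT library 2 and KO library 2. The part of these cell types in the Smad values was not tested.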

How the data were processed

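Ribosome-protected fragments from 2 WT libraries and 2 libraries labelled KO were sequenced by the authors. Per the study and the submitters' processing notes, rRNA and tRNA reads were removed, the rest mapped to mm10 with TopHat2 and assigned to genes with HTSeq, and the authors deposited RPKM values per gene. Within each library, RPKM times gene length was divided by its smallest value above 0, taken as 1 read, and gave whole reads for 100% of values (tolerance 0.001). The library size inferred from that step ranged from 471136 to 906990 and differed from the totals recovered here. The sample titles name the assay Polysome-Seq, and the protocol describes ribosome-protected fragments.

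Groups came from the sample titles. Genes whose mean reached 1 RPKM were fitted with limma 3.58.1 (R 4.3.3; lmFit, eBayes with trend=TRUE) on log2(RPKM + 1), which understates differences of low genes, with Benjamini-Hochberg adjustment over all of them. A trial of the fit on simulated reads altered only well-read genes. It does not bear on members with few reads, and nothing here rests on it. With 2 against 2 libraries an exact two-sided permutation test cannot go below p = 0.333, so none was run. Poisson and Wilson intervals (95%) and the 3-read limit cover counting error only, since PCR copies are not independent molecules. Coding sequences came from GENCODE M21 (GRCm38, the build of mm10); 99.7% of gene identifiers matched, and pairs were aligned with Biopython 1.88. The longest coding sequence stood for each gene.

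The members and gene lists were chosen with earlier results of these data known. Named genes were Eif5a, the members, in each list any gene called and the 2 lowest and 2 highest differences among genes with at least 20 reads, and the 5 profiles nearest to Smad6; other genes were named after their values were seen, and some genes under the rule are not reported here. Alternatives were another pseudocount (0.1), filters, scalings, limma-voom, a replicate block, removal of the trend on coding GC (lowess, span 0.3) leaving out each library and, added after the data were seen, coding length in place of gene length for levels between members.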

Additional observations from a re-analysis of the deposited data

How the results depend on the processing

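The fit over all genes called 11 lower and 1 higher in the KO-labelled libraries. Both counts were 0 with trend=FALSE, the GC trend removed, an equal read total, only protein-coding genes, at least 20 reads, a mean of at least 5 RPKM, all genes above 0 in a library, and 0.1 as pseudocount, and both were 0 with each library left out, where the lone library of a group was assumed to vary like the other group. At an unadjusted p under 0.05 the fit had 507 lower and 325 higher, an equal read total 169 and 1689, an equal protein-coding total 610 and 239, and quantile normalization 408 and 421. Limma-voom called 39 lower and 0 higher. The cause was not tested. With the replicate number as a block both counts were 0. The difference of Smad6 was -3.13 as without it, which a block in this balanced design cannot change. The libraries share only a number: the deviations of same-numbered libraries had a correlation of 0.0575.

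The counts of pathway genes called were 0 under all 16 alternatives. Only limma-voom, quantile normalization and an equal protein-coding total called any gene at all. Under the others the count could not have differed from 0. The difference of Smad6 ran from -3.81 to -2.45, and the KO minus WT difference of its share in the Smad signal, -45.3 percentage points, ran from -55.0 to -35.7 with each library left out and was -44.7 in reads and -44.3 per coding length, a setting added after the data were seen. Depth limits Smad3 (68 reads in all), Smad7 (91) and Smad9 (1), and the differences of Smad2, Smad4 and Smad7 changed sign depending on which library was left out.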
